A study of Mus musculus with 9 samples.

Results

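The genes followed here act in G2, the gap between DNA replication and division, and in mitosis. They were a list of 38 gene symbols, looked up in the platform annotation of the arrays. Of these, 37 were found, and Ccnb1 was not analysed here. Each gene was represented by its probe set (a group of short probes for 1 transcript) of highest mean log2 intensity over the 9 arrays. The 37 are part of 18193 genes named on the arrays, of which 11961 were bright enough to be tested. All 37 were among the tested genes, and each lay above the array median on all 9 arrays.

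Cells that divide make most of these transcripts only from late S phase to the end of mitosis and destroy many of the proteins as division ends. In cycling cells the MuvB complex, together with B-Myb (Mybl2) and FoxM1, drives their promoters, while in resting cells the same complex, joined by E2F4 and p107 or p130 as DREAM, represses them. Because few resting cells carry these transcripts, their level in a tissue extract is widely read as a measure of dividing cells. In blood formation, quiescent stem cells have little of them, and the multipotent progenitors that expand from stem cells have more.

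RNA came from bone marrow cells of mice sorted as lineage-negative, CD117+, SCA-1+ and CD135+ (a surface phenotype of multipotent progenitors that includes lymphoid-primed cells), and it was hybridised to Affymetrix 3-prime expression arrays. The groups were wild-type controls (WT), E2A-/- mice and Lyl1-/- mice, with 3 arrays each, which the labels call biological replicates. E2A (gene Tcf3) and Lyl1 are both basic helix-loop-helix transcription factors. The sources used here do not give the knockout alleles, the strain, the age and sex of the mice, or whether animals were pooled. The question that the groups imply is whether the division programme of these progenitors differs when either factor is missing.

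Several arrays stood apart. WT 1 and WT 3 differed by a robust spread of 0.0827 on the log2 scale among the brightest probe sets, against 0.193 to 0.375 in the other pairs, and for 0 probe sets did they stand over 2-fold apart, so they were averaged and counted as 1 sample. WT therefore has n = 2 in every test and each knockout n = 3. The ratio of 3-prime to 5-prime actin signal, a sign of RNA integrity, was 10.6 on WT 2 and 10.1 on E2A-/- 2 and 2.85 to 4.23 on the others. Xist, a transcript of female cells, was between 2001 and 2362 on E2A-/- 2, Lyl1-/- 1 and Lyl1-/- 2 and between 79.7 and 104 on the other 6 arrays. Lyl1 itself read 1352 to 1443 in WT, 825 to 1222 in E2A-/- and 79.2 to 92.0 in Lyl1-/-, whereas the brightest Tcf3 probe set overlapped between WT (164 to 205) and E2A-/- (121 to 193) and does not check that label. Of the sort markers, Kit and Flt3 (CD135) lay above the array median on all arrays, and Ly6a was not analysed here. Kit read 465 to 508 in WT, 327 to 493 in E2A-/- and 314 to 397 in Lyl1-/-, and Flt3 read 1052 to 1302, 863 to 1217, and 672, 742 and 1136. Neither passed limma's test against WT, and their part in the values of the division genes was not tested.

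Some promoter letters were more frequent among these genes than among all genes. The RefSeq promoter table (build GRCm38.p6) held 34 windows for 31 of the 37 genes, and the 250 bases before each start were searched on both strands. The letters of the cell cycle homology region (CHR, the MuvB contact; TTTGAA or TTCGAA) were in 14 windows, 41.2%, against 17.2% of all 32851 windows. The NF-Y box CCAAT was in 26 windows, 76.5%, against 33.9%. The longer form in which a cell cycle dependent element stands just before a CHR (GCGG, then 4 other bases, then TTTGAA) was found in 1 window, that of Cdk1, 2.94% against 0.0548%. The E2F letters TTTCCCGC were found in none, against 0.895% of all windows. A match describes the sequence and does not show a site in use. The windows of 4 genes with CHR letters are printed because these genes are among those with the smallest p-values below, or, for Bub1b, next in that order: Mki67 at chr7:135716380-135716629 on the minus strand, Ccnb2 at chr9:70421555-70421804 on the minus strand, Ube2c at chr2:164769679-164769928 on the plus strand and Bub1b at chr2:118597961-118598210 on the plus strand. Each reads 5′ to 3′ along its gene and ends at the base before the start, with CHR and CCAAT letters of either strand in capitals.
Mki67: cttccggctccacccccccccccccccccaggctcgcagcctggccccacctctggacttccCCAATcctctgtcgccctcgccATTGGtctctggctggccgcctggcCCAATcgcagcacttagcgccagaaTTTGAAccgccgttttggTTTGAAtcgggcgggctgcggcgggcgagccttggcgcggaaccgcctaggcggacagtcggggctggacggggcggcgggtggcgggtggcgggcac
Ccnb2: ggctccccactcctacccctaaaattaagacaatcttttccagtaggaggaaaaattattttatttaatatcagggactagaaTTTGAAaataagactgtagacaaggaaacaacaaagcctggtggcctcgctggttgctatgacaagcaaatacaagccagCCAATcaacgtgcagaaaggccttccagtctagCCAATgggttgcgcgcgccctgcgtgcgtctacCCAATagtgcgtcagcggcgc
Ube2c: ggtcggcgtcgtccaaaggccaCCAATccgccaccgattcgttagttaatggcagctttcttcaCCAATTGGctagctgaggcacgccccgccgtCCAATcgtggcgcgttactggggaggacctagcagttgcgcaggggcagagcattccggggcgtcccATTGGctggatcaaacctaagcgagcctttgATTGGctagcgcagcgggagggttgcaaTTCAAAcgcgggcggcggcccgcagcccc
Bub1b: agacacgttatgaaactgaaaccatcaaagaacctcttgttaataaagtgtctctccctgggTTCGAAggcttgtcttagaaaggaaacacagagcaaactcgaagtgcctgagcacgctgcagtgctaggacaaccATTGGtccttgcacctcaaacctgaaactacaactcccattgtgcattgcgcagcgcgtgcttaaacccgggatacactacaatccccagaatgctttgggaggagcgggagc
In these windows CHR letters lie 98 and 116 bases before the start of Mki67, 167 before Ccnb2, 29 before Ube2c and 188 before Bub1b. CCAAT letters occur 3 times in Mki67, 3 times in Ccnb2, 6 times in Ube2c and 1 time in Bub1b. In E2A-/- against WT the median log2 difference was -0.017 in the 12 genes with CHR letters (6 lower) and -0.10 in the 19 without (13 lower). In Lyl1-/- against WT it was 0.054 (5 lower) and 0.096 (6 lower), and in E2A-/- against Lyl1-/- -0.100 (10 lower) and -0.14 (16 lower). The difference between genes with and without the letters was not tested.

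**Figure D1:**
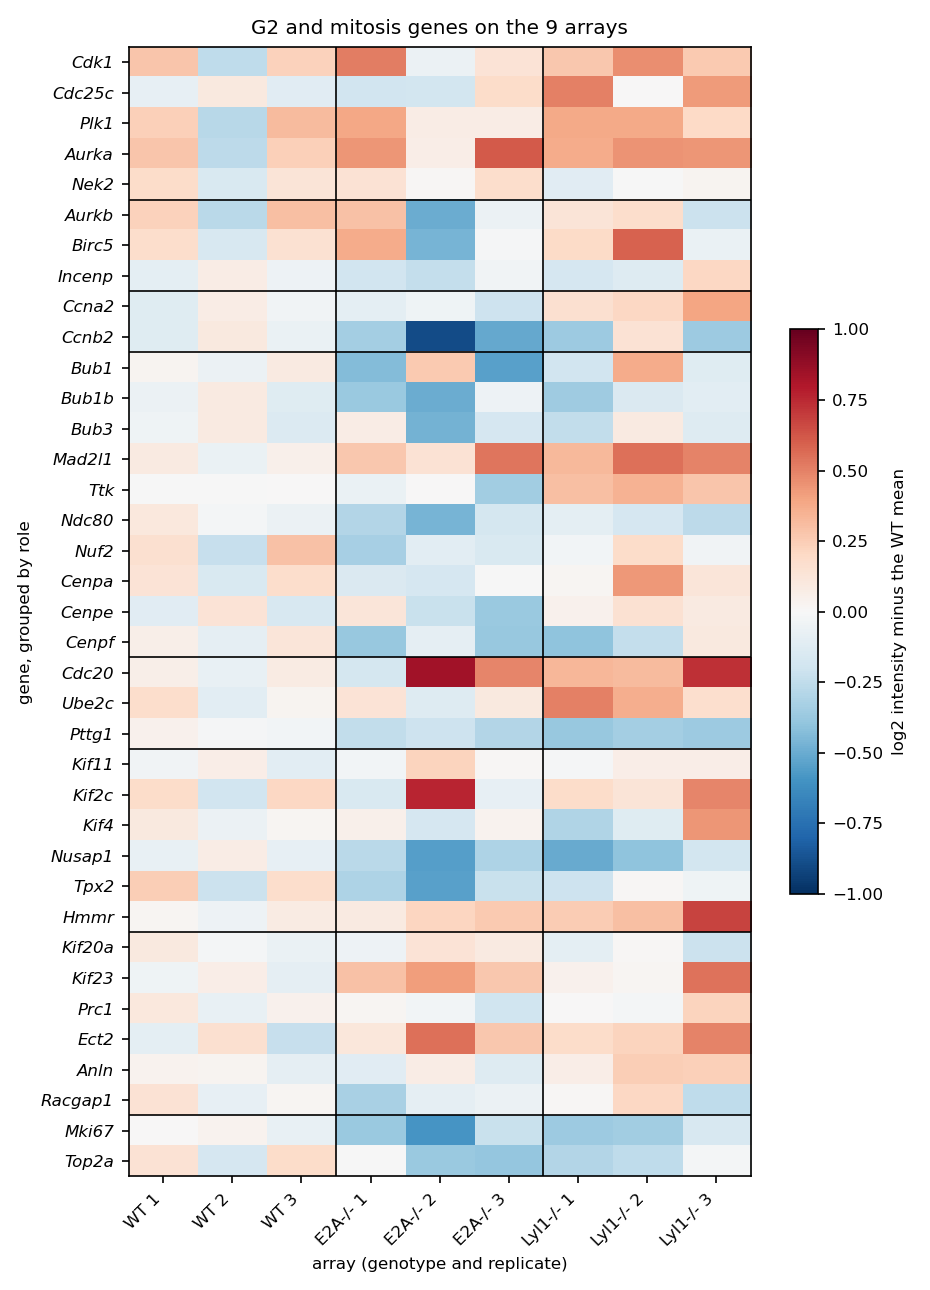
Log2 intensity of the 37 genes (rows, by role, with lines between roles) on each of the 9 arrays (columns), as the difference from the WT mean (WT 1 and WT 3 averaged first), in colour from blue (lower) to red (higher). Most roles mix both colours, and Mki67, Pttg1, Nusap1 and Ndc80 are lower on all 6 knockout arrays than on any WT array.

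In E2A-/- progenitors the division genes were close to WT. Of the 37, 24 were lower and 13 higher, with a median log2 difference of -0.088, against -0.013 over all tested genes, of which 53.7% were lower. With a gene's probe sets averaged the median was -0.020 (21 lower). Without WT 1 and WT 3, which leaves only WT 2 (high actin ratio) as WT, it was -0.0022 (19 lower). Without WT 2 it was -0.098 (28 lower). None passed limma's test at an adjusted p of 0.05 (0 of 37; the smallest adjusted p was 0.405), where 0.226% of all tested genes did. At an unadjusted p under 0.05, 6 of the 37 were lower (5.36% of all tested genes) and 1 was higher (3.21%). All 3 E2A-/- arrays lay below all 3 WT arrays for 7 of the 37, 18.9%, against 10.3% of all tested genes, and above them for 3 of the 37, 8.11%, against 7.45%. The 95% interval of the difference, from the same limma fit, was within 2-fold for 36 of the 37, the exception being Ccnb2, and its median half-width was 0.35 on the log2 scale. In all 3 comparisons these intervals are of intensity with the array minimum left in, which makes differences of dim genes smaller. A lower level in these extracts could come from fewer dividing cells or from less transcript per dividing cell, and the arrays cannot tell these apart.

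The genes with the smallest p in this comparison were all lower in E2A-/-. Mki67 encodes Ki-67, which coats mitotic chromosomes and is the standard marker of cycling cells. Its intensity was 2470, 2533 and 2346 in WT 1 to 3 and 1911, 1643 and 2112 in E2A-/- 1 to 3. The groups did not overlap, with E2A-/- 2 the lowest array, and the log2 difference was -0.39 (SE 0.127, limma adjusted p = 0.405). Pttg1 encodes securin, which holds separase in check until anaphase. The WT arrays read 1843, 1770 and 1755, and the E2A-/- arrays 1501, 1547 and 1458. These too were separate groups, tight on both sides, with a difference of -0.25 (SE 0.0843, adjusted p = 0.440). Ccnb2 encodes cyclin B2, a partner of Cdk1, and had the most negative difference of the list. The WT arrays read 520.4, 602.6 and 538.0, and the E2A-/- arrays 446.5, 303.9 and 395.0. Every E2A-/- array was below every WT array, although they spread widely among themselves, and the difference was -0.58 (SE 0.204, adjusted p = 0.466). Nusap1 encodes a protein that bundles spindle microtubules. The WT arrays read 354.3, 393.2 and 352.9, and the E2A-/- arrays 309.2, 254.8 and 301.8. Again the groups did not overlap and E2A-/- 2 was lowest, with a difference of -0.37 (SE 0.133, adjusted p = 0.476). Ndc80 encodes the kinetochore subunit that grips microtubule ends. The WT arrays read 168.8, 154.7 and 151.0, and the E2A-/- arrays 128.5, 113.5 and 138.9. E2A-/- 2 was once more the lowest and no E2A-/- array reached WT, with a difference of -0.31 (SE 0.111, adjusted p = 0.477).

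By role, the signs in E2A-/- against WT were uneven, and none of these differences passed the test. Of the 10 genes of the kinetochore and the spindle checkpoint (which delays anaphase until chromosomes are attached), 9 were lower, with a median of -0.19. Beside Ndc80 these were its partner Nuf2 (-0.20), the checkpoint genes Bub1b (-0.31), Bub1 (-0.24), Bub3 (-0.19) and Ttk (-0.14), and the centromere genes Cenpf (-0.28), Cenpe (-0.16) and Cenpa (-0.10). The exception was Mad2l1, the Mad2 subunit of the checkpoint complex, at 0.32. These are the brightest probe sets. Others above the array median were higher for Bub1 (0.54), Bub1b (0.12), Cenpe (0.12) and Cenpf (0.036). They were lower for Bub3 (-0.15), Ttk (-0.16), Cenpa (-0.062) and, by another probe set, Bub1b (-0.23). Both cyclins were lower (Ccna2 -0.11), as were both chromosome structure and proliferation markers (Top2a, the topoisomerase that untangles sister chromatids, -0.25). The 3 genes of the chromosomal passenger complex, which corrects faulty attachments, were all lower by small amounts: Birc5 -0.035, Aurkb -0.088 and Incenp -0.16. In contrast, 4 of the 5 regulatory kinases and phosphatase were higher: Cdk1, the engine of mitosis, 0.20, its activator Plk1 0.18, the spindle pole kinase Aurka 0.37 and the centrosome kinase Nek2 0.11. For all 4, WT 2 (high actin ratio) was the lowest WT array, at -0.51, -0.55, -0.52 and -0.31 relative to the mean of WT 1 and WT 3. Cdk1, for example, read 604, 417 and 584 in WT 1 to 3 and 710, 478 and 548 in E2A-/- 1 to 3. The part of WT 2 in these signs was not tested. The phosphatase Cdc25c, which activates Cdk1, was at -0.063. The 6 spindle motors and microtubule proteins were divided, 3 lower and 3 higher, with Tpx2 at -0.36 and Hmmr, a spindle assembly protein, at 0.19, and the kinesin motors between them (Kif2c 0.17, Kif11 0.068 and Kif4 -0.029). The 6 genes of the central spindle and cytokinesis were likewise divided, with Kif23 and Ect2, which build and signal from the central spindle, at 0.33 and 0.31 and Racgap1, their partner, at -0.16. The midzone genes Prc1 and Kif20a and the ring gene Anln were at -0.069, 0.060 and -0.057. Among genes of the anaphase-promoting complex step, Cdc20 was at 0.39, Ube2c at 0.035 and Pttg1 at -0.25.

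**Figure D2:**
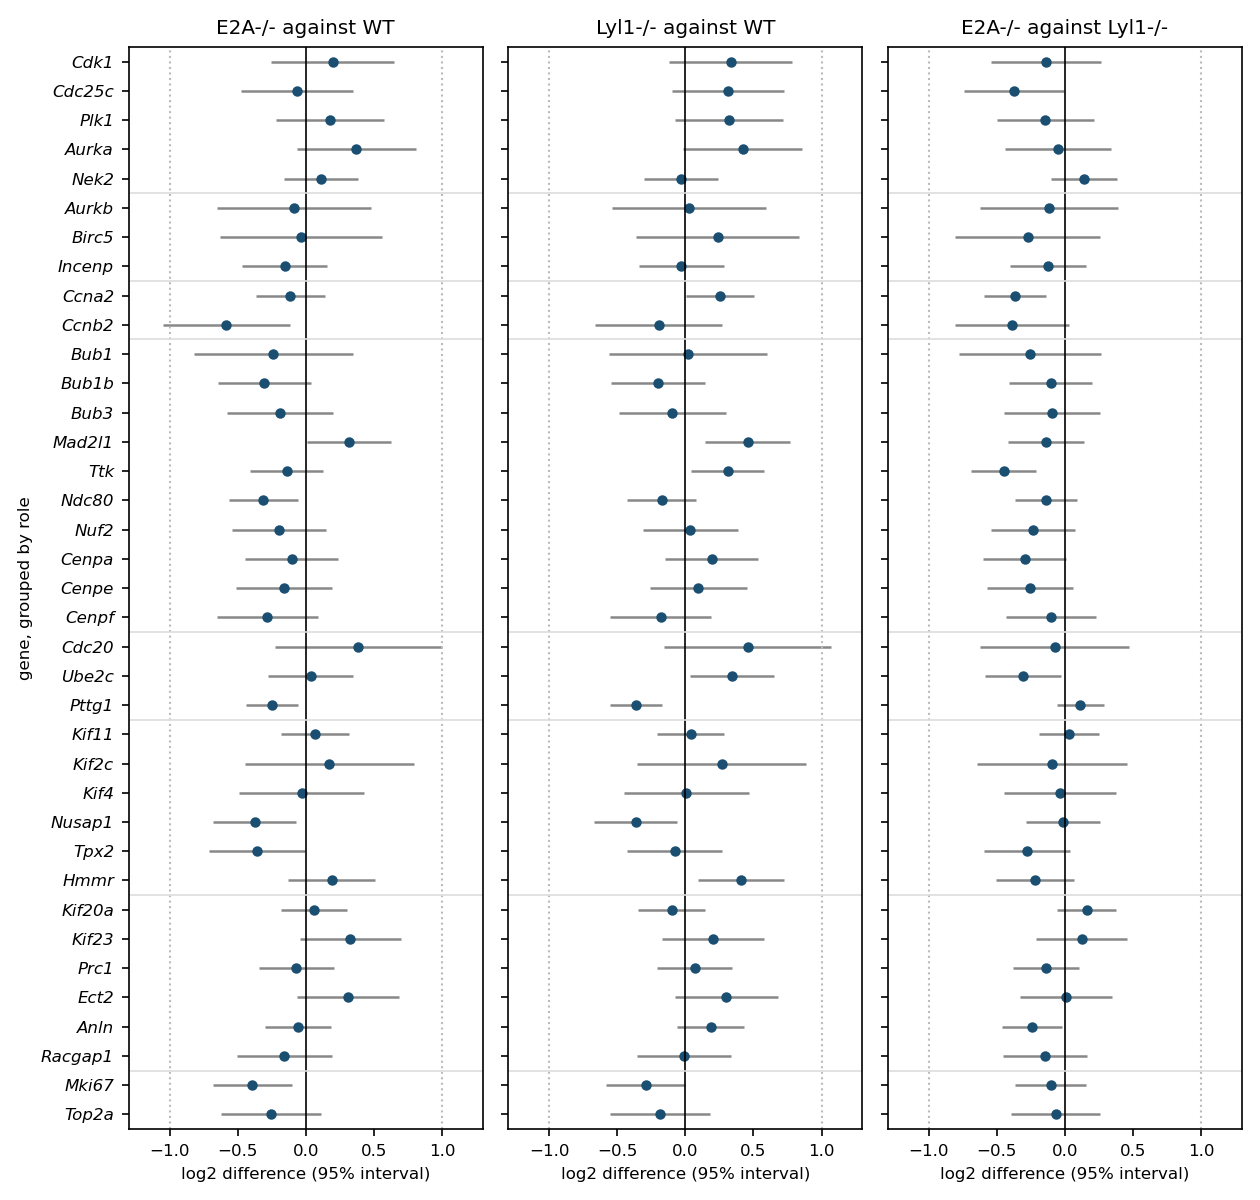
Log2 difference with its 95% limma interval for each of the 37 genes (rows, by role) in each of the 3 comparisons (panels). Most intervals cross 0, and in the comparison of the knockouts 31 of the 37 points lie to the left of it.

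In Lyl1-/- progenitors more division genes were higher than lower, again by small amounts. Of the 37, 23 were higher and 14 lower than WT, with a median log2 difference of 0.040, against -0.0048 over all tested genes, of which 51.4% were lower. It was 0.12 with Xist as a covariate, 0.13 without WT 1 and WT 3 (only WT 2 left as WT) and 0.12 without Lyl1-/- 1. None passed limma's test (0 of 37; the smallest adjusted p was 0.226), where 0.192% of all tested genes did. At an unadjusted p under 0.05, 5 of the 37 were higher (3.80% of all tested genes) and 3 lower (598 of the 11961 tested genes). All 3 Lyl1-/- arrays lay above all WT arrays for 8 of the 37, 21.6%, against 9.90%, and below them for 4 of the 37, 10.8%, against 12.2%. The interval was within 2-fold for 36 of the 37, with Cdc20 the exception. This comparison shares its WT samples with the first, so the pair are not independent.

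Of the genes with the smallest p in Lyl1-/-, 3 were higher and 2 lower. Pttg1 read 1372, 1409 and 1385 in Lyl1-/- 1 to 3, against 1755 to 1843 in WT. The groups were separate and each was tight, with a difference of -0.36 (SE 0.0843, limma adjusted p = 0.226). Mad2l1 read 510.2, 457.8 and 498.6 in WT and 601.6, 703.3 and 677.8 in Lyl1-/-. No Lyl1-/- array was as low as WT, and the difference was 0.46 (SE 0.135, adjusted p = 0.358). Hmmr read 278.8, 265.5 and 290.3 in WT and 327.6, 337.7 and 438.9 in Lyl1-/-. Lyl1-/- 3 stood far above the other 2 of its group, and the difference was 0.41 (SE 0.139, adjusted p = 0.432). Nusap1 read 262.9, 282.7 and 327.8 in Lyl1-/-. All were below the WT arrays (352.9 to 393.2), and the difference was -0.36 (SE 0.133, adjusted p = 0.466). Ttk encodes Mps1, the kinase that starts the spindle checkpoint. It read 109.4, 109.9 and 110.4 in WT and 135.4, 140.2 and 133.5 in Lyl1-/-. These groups were separate, and the difference was 0.31 (SE 0.117, adjusted p = 0.488).

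By role, 4 of the 5 kinase and phosphatase genes were higher in Lyl1-/- than in WT, with a median of 0.32 (Aurka 0.42, Cdk1 0.33, Plk1 0.32, Cdc25c 0.31 and Nek2 -0.030). WT 2 was the lowest WT array for Aurka, Cdk1, Plk1 and Nek2 and the highest for Cdc25c. Plk1, for example, read 167, 117 and 177 in WT 1 to 3 and 185, 185 and 163 in Lyl1-/- 1 to 3. The part of WT 2 in this median was not tested. Ube2c, the ubiquitin-conjugating enzyme of the anaphase-promoting complex, and Cdc20, its activator, were at 0.34 and 0.46, opposite in sign to Pttg1, a protein which that complex destroys. Of the checkpoint and kinetochore genes, 6 of 10 were higher, with a median of 0.028, from Bub1b at -0.20 to Mad2l1. The cytokinesis genes Ect2 and Kif23 were at 0.30 and 0.20, as Anln was at 0.19, and the motor Kif2c was at 0.27. Mki67 and Top2a were again both lower, at -0.29 and -0.19, while the cyclins were split, Ccna2 at 0.25 and Ccnb2 at -0.19. None of these passed the test.

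For 4 of the 37 genes all 6 knockout arrays lay below all 3 WT arrays: Mki67, Ndc80, Nusap1 and Pttg1. This held for 4.76% of all tested genes. For 2 genes, Hmmr and Mad2l1, all 6 lay above, as for 2.84% of all tested genes. WT rests on 2 samples here, so these counts lean on few arrays.

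**Figure D3:**
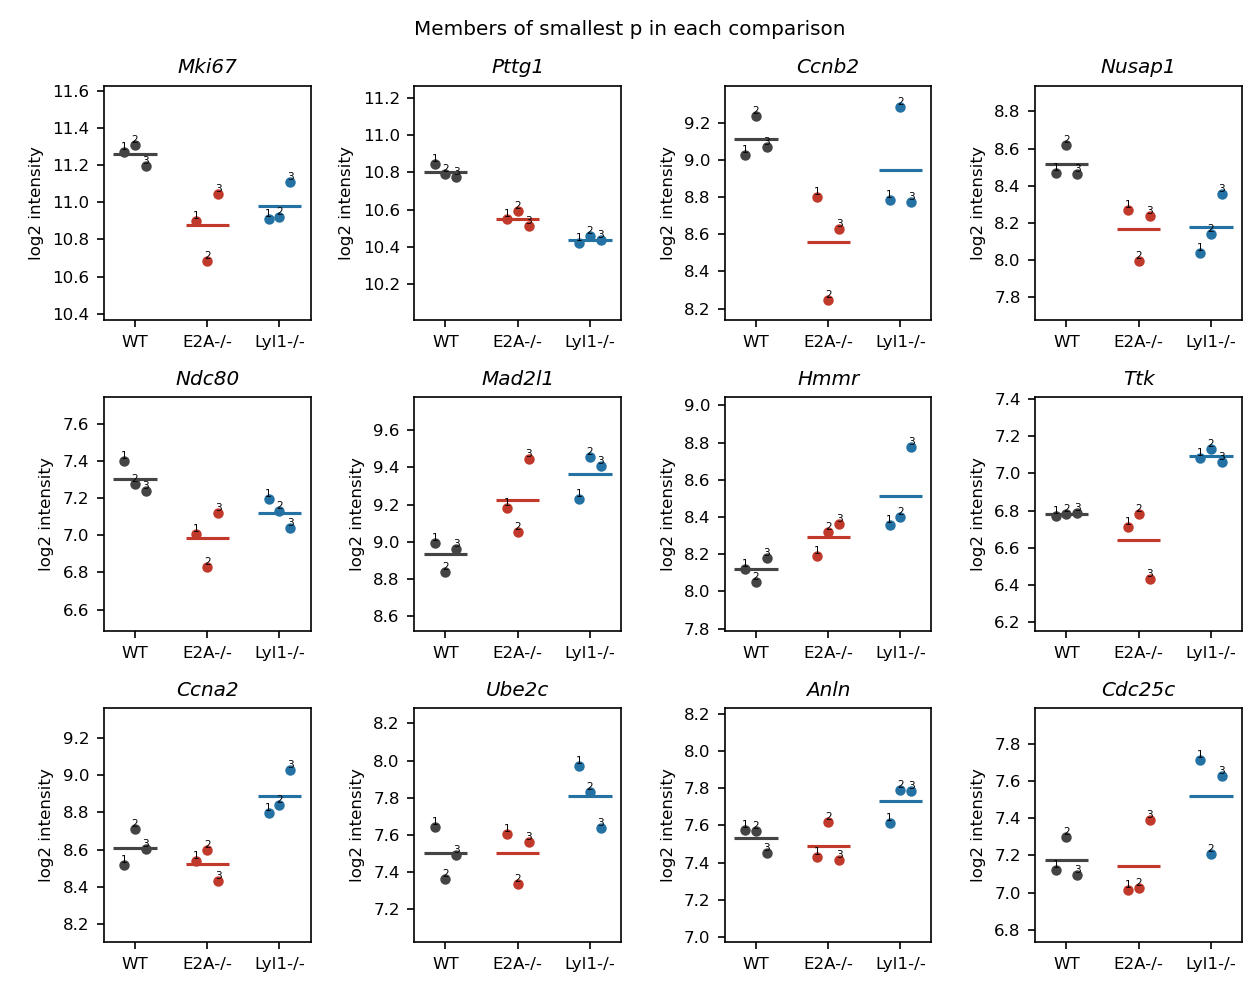
Log2 intensity (y axis) on each array (points, numbered by replicate) of the 12 genes of smallest p over the 3 comparisons, by genotype (x axis), with the mean of the 3 arrays of a group as a line; the y axes do not start at 0. Ttk lies higher on all 3 Lyl1-/- arrays than on any other array, and Pttg1 lies lower on all 6 knockout arrays than in WT.

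Set directly against each other, the knockouts differed by small amounts and mostly in 1 direction. In E2A-/- 31 of the 37 were lower than in Lyl1-/-, 83.8%, with a median log2 difference of -0.14, against -0.0084 over all tested genes, of which 52.6% were lower. None passed limma's test (0 of 37; the smallest adjusted p was 0.290), where 0.117% of all tested genes did. At an unadjusted p under 0.05, 5 were lower (4.80% of all tested genes) and 0 higher (3.85%). All E2A-/- arrays lay below all Lyl1-/- arrays for 6 of the 37, 16.2%, against 6.45%, and above them for 1, Pttg1, against 5.73%. The interval was within 2-fold for 37 of the 37. Without E2A-/- 2 and E2A-/- 3, 23 of the 37 were lower, and without Lyl1-/- 3, 25 were.

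Ttk had the smallest p: 104.8, 110.0 and 86.2 in E2A-/- against 133.5 to 140.2 in Lyl1-/-. No array overlapped, and the difference was -0.45 (SE 0.105, limma adjusted p = 0.290). Ccna2 encodes cyclin A2, which works in S phase and G2. It read 372.4, 386.9 and 345.3 in E2A-/- and 444.9, 458.8 and 522.5 in Lyl1-/-. The groups were again separate, while WT (366.5, 419.2 and 388.6) overlapped E2A-/-, and the difference was -0.37 (SE 0.0987, adjusted p = 0.373). Ube2c read 194.6, 161.6 and 189.2 in E2A-/- and 250.4, 227.3 and 198.8 in Lyl1-/-. These did not overlap, with a difference of -0.31 (SE 0.121, adjusted p = 0.523). Anln encodes anillin, a scaffold of the contractile ring. It read 172.2, 196.8 and 170.4 in E2A-/- and 195.5, 221.3 and 220.7 in Lyl1-/-. Lyl1-/- 1 was below E2A-/- 2, so the groups overlapped, and the difference was -0.24 (SE 0.0961, adjusted p = 0.532). Cdc25c read 129.1, 130.2 and 168.0 in E2A-/- and 209.9, 148.0 and 197.8 in Lyl1-/-. Here Lyl1-/- 2 lay within the range of E2A-/-, and the difference was -0.37 (SE 0.161, adjusted p = 0.562). By role, and by the brightest probe sets only, all 10 checkpoint and kinetochore genes were lower in E2A-/- (median -0.19) as were all 3 passenger genes and both cyclins, whereas 3 of the 6 cytokinesis genes were higher (Kif20a 0.16, Kif23 0.12 and Ect2 0.0094). Among the checkpoint and kinetochore genes, other probe sets above the array median were higher for Bub1 (0.15), Bub1b (0.041), Cenpf (0.069) and Cenpa (0.012). Such probe sets were lower for Bub3 (-0.18), Cenpe (-0.084), Ttk (-0.23) and, by another probe set, Bub1b (-0.16).

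Some division genes were lowest on the 2 arrays with high actin ratios. WT 2 was the lowest WT array for 20 of the 37 (44.5% of all tested genes) and the highest for 12 (41.0%). E2A-/- 2 was the lowest E2A-/- array for 18 of the 37 (33.5%) and the highest for 13 (30.4%). Both arrays were the lowest of their groups for 11 genes, 29.7% of the 37 against 16.1% of all tested genes. These were Aurka, Aurkb, Birc5, Cdk1, Cenpa, Kif4, Mad2l1, Nek2, Plk1, Tpx2 and Ube2c. As WT 1 and WT 3 were nearly alike, WT 2 was often the lowest or highest of its group. The part of the actin ratio in these values was not tested. Lyl1-/- 1 was the lowest Lyl1-/- array for 21 of the 37 (32.9%). The genes varied within groups slightly more than all tested genes did: the median SD of log2 intensity between the 3 arrays of a group was 0.108 in WT, 0.166 in E2A-/- and 0.146 in Lyl1-/-, against 0.092, 0.153 and 0.123 over all tested genes. The WT values here count WT 1 and WT 3 as separate arrays although they were nearly alike. The mean correlation between pairs of the 37, on group-centred values of the 8 samples, was 0.054, against 0.016 over all tested genes. The same arrays lie behind every pair, so the signs of the 37 are not independent of each other.

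Transcripts of other cell types differed between arrays of both knockouts and of WT. The 12 tested markers of mature granulocytes and monocytes, of 16 on the list, were all higher in E2A-/- than in WT, and their summed intensity was 1861 to 2259 in WT, 1924 to 19939 in E2A-/- and 1803 to 3578 in Lyl1-/-. On the E2A-/- arrays the median marker stood at -0.027, 2.93 and 3.08 relative to WT on the log2 scale, while the median of the 37 division genes stood at -0.068, -0.092 and -0.056. On Lyl1-/- 1 to 3 the markers stood at 0.52, 0.61 and -0.11 and the division genes at 0.014, 0.15 and 0.095. The 6 tested erythroid markers of 11 were also all higher in E2A-/-, with summed intensities of 719 to 777 in WT and 963 to 2124 in E2A-/-, and 556 to 679 in Lyl1-/-. The 8 tested markers of granulocyte and monocyte progenitors, of 10, stood at 0.48, 0.29 and 0.91 on E2A-/- 1 to 3 and at 1.34, 1.15 and -0.098 on Lyl1-/- 1 to 3, with summed intensities of 7992 to 12307 in WT, 8424 to 12707 in E2A-/- and 6560 to 15704 in Lyl1-/-. The 4 tested B lineage markers of 9 were all lower in E2A-/- than in Lyl1-/-, with summed intensities of 404 to 493 against 533 to 640. The 2 tested stromal and endothelial markers of 7 had summed intensities of 494, 960 and 558 on WT 1 to 3. Their sums were 534 to 742 in E2A-/- and 479 to 564 in Lyl1-/-. Col1a2 read 415 on WT 2 and 69.6 to 102 on the other arrays, while Pdgfrb read 545 and 405 to 673. No marker of these lists passed limma's test, and the part of these cell types in the values of the division genes was not tested.

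**Figure D4:**
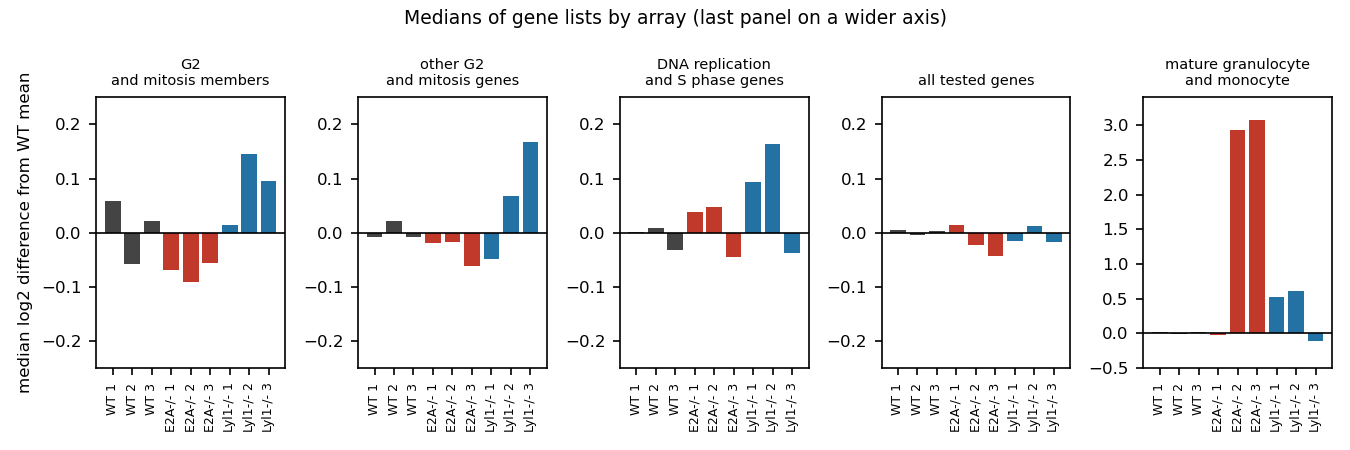
Median log2 difference from the WT mean (bars, y axis from 0) on each array (x axis; WT grey, E2A-/- red, Lyl1-/- blue) for the 37 division genes, the further G2 and mitosis genes, the S phase genes, all tested genes and, on a wider axis, the mature granulocyte and monocyte markers. The markers stand at 2.93 and 3.08 on E2A-/- 2 and 3, where the 37 genes stand at -0.092 and -0.056.

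Most division genes had more than 1 probe set, 86 for the 37, and these did not always agree. Beside the brightest, 33 others in 22 genes lay above the array median. They had the same sign as the brightest in 17 of 33 cases in E2A-/- against WT, 20 of 33 in Lyl1-/- against WT and 23 of 33 between the knockouts. Where the brightest differed by over 0.2 the counts were 6 of 12, 12 of 15 and 9 of 13. Cdc20 was steady: its 3 probe sets were at 0.39, 0.35 and 0.37 in E2A-/- and at 0.46, 0.67 and 0.43 in Lyl1-/-, although its brightest probe set overlapped between WT (910 to 1014) and E2A-/- (846, 1714 and 1343). For Bub1, a checkpoint kinase, the brightest was at -0.24 and the other at 0.54 in E2A-/- against WT. For Tpx2, a protein that activates Aurora A on the spindle, the brightest was at -0.36 and the others at -0.020, 0.050 and 0.093. Hmmr in Lyl1-/- against WT was at 0.41 by the brightest and at -0.0014, 0.082 and 0.091 by the others. For Ccna2 the brightest was at -0.37 between the knockouts and the other at -0.031. Against WT the brightest was at -0.11 in E2A-/- and 0.25 in Lyl1-/-, and the other at 0.16 and 0.19. For Pttg1, the gene of smallest p against WT in Lyl1-/-, the others were at -0.14 and -0.10 in that comparison. In E2A-/- against WT they were at -0.38 and 0.057, with the brightest at -0.25. Between the knockouts they were at -0.24 and 0.16, with the brightest at 0.11. Which transcripts each probe set reads was not tested.

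**Figure D5:**
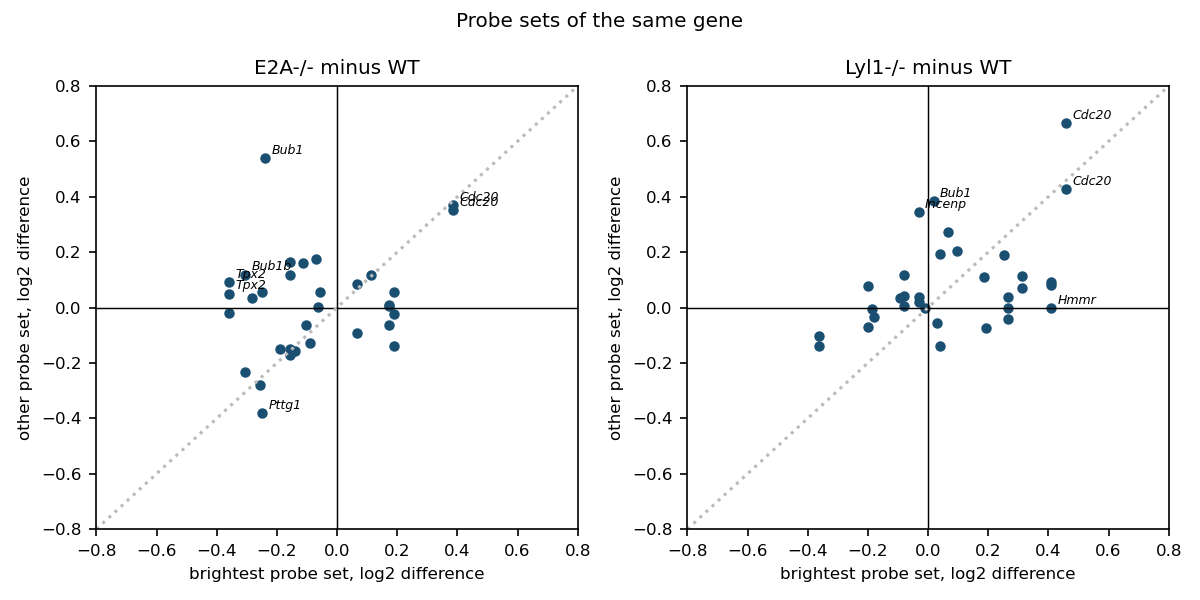
Log2 difference of each other probe set above the array median (y axis) against that of the brightest probe set of the same gene (x axis), for E2A-/- minus WT (left) and Lyl1-/- minus WT (right), with a dotted line of equality. The sign was the same on both axes for 17 of 33 points on the left and 20 of 33 on the right.

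A second list held other genes of the same phases. Of its 58 tested genes, 38 were lower in E2A-/- than in WT, 35 were higher in Lyl1-/- than in WT and 46 were lower in E2A-/- than in Lyl1-/-, with medians of -0.034, 0.057 and -0.13. None passed limma's test, and the smallest adjusted p was 0.380, 0.367 and 0.365. Those with the smallest p included Psrc1, a spindle protein, at -0.51 in E2A-/- against WT, and Ube2s, a ubiquitin-conjugating enzyme of the anaphase-promoting complex, at 0.64 in Lyl1-/- against WT. The 18 subunits and inhibitors of that complex had medians of -0.18, 0.042 and -0.16 in the 3 comparisons, and the 18 condensin and cohesin genes -0.073, -0.00026 and -0.080. The 38 tested genes of DNA replication and S phase had medians of 0.020, 0.069 and -0.055, with 15, 11 and 27 of 38 lower and none past the test. No test of the difference between lists was made.

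Among the 23 tested regulators of these promoters, none passed limma's test. Foxm1 was at -0.04, -0.10 and 0.06 in E2A-/- against WT, Lyl1-/- against WT and E2A-/- against Lyl1-/-. Mybl2, the gene of B-Myb, was at -0.08, 0.29 and -0.37, and Lin54, the MuvB subunit that contacts CHR letters, at 0.18, 0.04 and 0.14. The smallest adjusted p among them in any comparison was that of Tfdp1, a dimerisation partner of the E2F factors. It was at 0.50 in Lyl1-/- against WT (limma adjusted p = 0.188). Tfdp2, another such partner, went the other way there, at -0.74 and short of the threshold. Its arrays read 307 to 386 in WT and 192, 242 and 193 in Lyl1-/-. Rb1, which represses E2F targets, was at -0.41 in E2A-/- and -0.49 in Lyl1-/-, both against WT and neither past the test. Of 4 tested CDK inhibitors, which brake the cycle, 4 were higher in E2A-/- than in WT and 3 in Lyl1-/- than in WT. Only Cdkn1a passed limma's test, and only in Lyl1-/- against WT, where 0.192% of all tested genes did. Cdkn1a, the gene of p21, read 115 to 119 in WT, 145 to 151 in E2A-/- and 192 to 272 in Lyl1-/-. The groups did not overlap, and in Lyl1-/- against WT the difference was 1.02 (limma adjusted p = 0.048). That call did not hold without WT 2 (limma adjusted p = 0.494), without Lyl1-/- 1 (0.179), without Lyl1-/- 2 (0.259) and without any 1 of the E2A-/- arrays (0.080, 0.0839 and 0.0846), and over all alternatives its adjusted p ran from 0.00697 to 0.585.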

How the data were processed

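The deposited values were 1 linear intensity per probe set and array, made by the authors with RMA and the oligo package per the submitters' processing notes, which give no version. The lowest intensity on each array was 42.1 to 45.1; with it subtracted and 16 added, Ttk in E2A-/- against Lyl1-/-, for example, was at -0.61 on the log2 scale in place of -0.45. Array medians were 77.9 to 79.2. Of 45101 probe sets, 64 controls were left out; the platform annotation gave 1 gene for 34945, several for 932 and none for 9160, and only the first kind was used. Entrez identifiers changed 0 symbols.

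Log2 was taken of the intensity with no pseudocount. Genes brighter than the array median on 3 or more arrays entered a test with lmFit and eBayes of limma 3.58.1 (R 4.3.3), with the 3 genotypes in 1 fit of 8 samples and 5 residual degrees of freedom, and Benjamini-Hochberg adjustment over all 11961 genes. The threshold was 0.05, and 95% intervals came from the same fit. The number of arrays limits the precision. p-values measure only the spread between these samples. The fit was tested on simulated data. The members and lists were chosen with earlier results of these data known. Genes named with a test are the 5 of smallest p in each comparison; of other lists, up to 4 of smallest p, any past the threshold, and Foxm1, Mybl2 and Lin54. Cdc20, Bub1, Tpx2 and the other genes given by probe set or role were described after their values were seen. Alternatives covered scaling, filters, probe sets, the WT pair, array quality, sex and each array left out.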

Additional observations from a re-analysis of the deposited data

How the results depend on the processing

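No G2 or mitosis gene passed limma's threshold under any of the 24 alternatives in any comparison. The smallest adjusted p was 0.0533, for Pttg1 in Lyl1-/- against WT with all 9 arrays as separate samples. The 15 differences given with a test kept their sign and stayed short of the threshold in all 360 refits. The median of E2A-/- against WT (-0.088) was -0.11 with the array minimum subtracted and 16 added, -0.059 after another quantile normalization, -0.020 when all probe sets of each gene were averaged, -0.068 without E2A-/- 2 and 3, -0.0022 without WT 1 and WT 3, and between -0.11 and -0.061 with 1 array left out. The median of Lyl1-/- against WT (0.040) was 0.12 with Xist as a covariate, 0.13 without WT 1 and WT 3, and between 0.037 and 0.12 with 1 array left out. That of E2A-/- against Lyl1-/- moved by less than the spread between arrays. The cause of these shifts was not tested.

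Whether replicate numbers pair the arrays was not settled. Correlations of same-numbered arrays ran from -0.145 to 0.240, 3 of 9 above 0.1, and those of other arrays between groups from -0.244 to 0.197. Of the 9 arrays, 5 correlated best with their own number. With the replicate block and all 9 arrays, the medians were -0.095, 0.042 and -0.14 and 0 members passed.

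Counts over all genes (27, 23 and 14) depended more on the setting. They were 97, 93 and 23 with 9 separate arrays and 60, 55 and 13 with the block. An intensity trend gave 43, 42 and 21, array weights 29, 52 and 14, only the groups compared 10, 15 and 11, and the Xist covariate 15, 7 and 10. The stricter filter gave 14, 18 and 10 and averaged probe sets gave 17 in the first. Without WT 2 and E2A-/- 2 they were 9, 8 and 3, without E2A-/- 2 and 3 6, 15 and 4, without WT 1 and WT 3 13, 14 and 11, and with 1 array left out 8 to 36, 7 to 34 and 3 to 21. Fits that leave 1 array in a group take its spread from the others.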
